A study of Mus musculus with 9 samples.

Results

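Collagen genes are those whose symbol is Col, a type number, a and a chain number, such as Col1a1. They were read from probe sets that the array's annotation pairs with a single such symbol, and for each gene the probe set with the highest mean over the 9 arrays was kept. This gave 42 genes from 82 probe sets, out of 18193 genes measured, and 15 of the 42 had only 1 probe set. The 9 arrays came from the spinal cords of 3 mice of the GAD65-GFP genotype at postnatal day 6, each cord giving 1 intermediate, 1 dorsal and 1 ventral piece, so that all groups share animals, genotype and age and are told apart by region. In this genotype GFP marks GABAergic neurons, but the labels name total RNA of the tissue and no cell sorting, so each value is an average over all the cells of a piece, and in such bulk samples fewer cells of a type and less RNA per cell cannot be told apart. Neither the way the pieces were cut nor whether meninges or roots stayed attached is given in the sources used here. Values are the deposited ones, on a scale read as log2 from their range, so a difference of 1 is a doubling. The lowest value in the table, 2.15, is shared, within 0.01, by 36.0 to 36.3% of the probe sets on each array and is called the floor below.

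Collagens are extracellular or cell-surface proteins in which 3 chains wind into a triple helix. Fibrillar collagens build the fibrils of connective tissue, type IV collagens the sheet of basement membranes, type VI collagens the beaded filaments between them, and the FACIT group (fibril-associated collagens with interrupted triple helices) decorates fibrils. In the spinal cord, fibril-forming collagen is known mainly from the meninges, vessel walls and nerve roots, type IV collagen from the basement membranes of vessels and of the cord's surface, and a few collagens, among them Col19a1 and Col25a1, from neurons.

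The promoters below are those of members that the results turn on: Col1a2 and Col3a1, chains of fibrils that were lowest in intermediate pieces, Col25a1, a transmembrane collagen that was highest there, and Col4a1 with Col4a2, type IV chains read from 1 shared promoter in opposite directions. Each is from RefSeq (GRCm38.p6), 5′ to 3′ on the plus strand. For the first 3, the 250 bases before the annotated start are given, and for Col4a1 and Col4a2 a stretch of 30 bases that both windows hold. Each window runs from 250 bases before the start to 50 after it. The stretch of Col4a1 and Col4a2 lies mostly after both starts, with its GC box letters at position 8 of Col4a2 and 10 of Col4a1. Capitals mark the TATA box letters TATAAA, the CCAAT box letters CCAAT and the GC box letters GGGCGG on either strand, and none of them overlaps another here.
Col1a2, chr6:4505368-4505617: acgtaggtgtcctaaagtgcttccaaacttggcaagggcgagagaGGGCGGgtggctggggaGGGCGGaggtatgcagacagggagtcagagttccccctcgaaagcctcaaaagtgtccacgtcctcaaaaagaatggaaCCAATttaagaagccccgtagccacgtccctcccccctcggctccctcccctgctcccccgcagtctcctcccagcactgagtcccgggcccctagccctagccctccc
Col3a1, chr1:45311288-45311537: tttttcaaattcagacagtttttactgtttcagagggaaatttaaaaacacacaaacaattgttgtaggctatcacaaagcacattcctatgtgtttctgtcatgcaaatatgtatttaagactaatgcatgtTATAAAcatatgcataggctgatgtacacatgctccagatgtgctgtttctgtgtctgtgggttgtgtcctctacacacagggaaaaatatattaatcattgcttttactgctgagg
Col25a1, chr3:130180595-130180844: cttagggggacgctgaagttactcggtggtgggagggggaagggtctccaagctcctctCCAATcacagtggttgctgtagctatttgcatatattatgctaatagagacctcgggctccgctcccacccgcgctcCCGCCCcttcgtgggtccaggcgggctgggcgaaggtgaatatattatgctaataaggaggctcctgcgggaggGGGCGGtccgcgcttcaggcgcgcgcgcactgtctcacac
Col4a1 and Col4a2, chr8:11312800-11312829: tcggcagtgcgcGGGCGGcgtctccaaggg
The annotated starts of Col4a1 and Col4a2 lie 21 bases apart on opposite strands, each inside the other gene, and their windows share 78 bases. The table held 36 windows for 33 of the 42 collagen genes, each of 300 bases. TATAAA was in 5 of the 36 (13.89%), against 13.62% of all 32851 windows. CCAAT was in 13 (36.11%), against 37.41% of all windows, and GGGCGG in 22 (61.11%), against 35.66%. Col3a1 held TATAAA and neither of the other motifs in these bases, while Col1a2 and Col25a1 held the CCAAT and GC box letters.

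The comparisons ask how the 3 regions of the cord differed, each animal serving as its own control in a limma fit over 13959 genes with Benjamini-Hochberg adjustment. A gene is called where the adjusted p is under 0.05. Of the 42 collagens, 40 passed the filter on dim probe sets. Col10a1 and Col17a1 were removed, and they and Col2a1, the main collagen of cartilage, were at the floor on every array. Intermediate pieces were called lower than dorsal pieces for 10 of the 40 collagens, where 14.2% of all genes were, and higher for 3, where 15.9% were. Against ventral pieces, intermediate pieces were called lower for 19 of 40, where 24.9% of all genes were, and higher for 5, where 23.4% were. Dorsal pieces were called lower than ventral pieces for 6 of 40, where 28.2% of all genes were, and higher for 5, where 24.5% were. With a difference of at least 1 as well, intermediate pieces were lower than dorsal pieces for 8 collagens (2.24% of all genes) and higher for none (1.6% of all genes), and lower than ventral pieces for 14 (4.52%) and higher for 3 (4.99%). Dorsal pieces were lower than ventral pieces by as much for 5 (6.5%) and higher for 4 (6.4%). In all, 25 of 40 collagens were called in at least 1 comparison, close to the 62.2% of all genes.

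The commonest order among the collagens, of those in which 1 region differed from both others, had intermediate pieces lowest. Of the 40, 9 (22.5%) were called lower in intermediate pieces than in both dorsal and ventral pieces, where 4.2% of all genes were. These were the fibrillar Col1a1, Col1a2, Col3a1, Col5a1 and Col5a2, the type VI chains Col6a1, Col6a2 and Col6a3, and the transmembrane Col23a1. The other such orders lay nearer their backgrounds. Col24a1, Col19a1 and Col25a1 (7.5%) were called higher in intermediate pieces than in both other regions, where 6.25% of all genes were. Ventral pieces were called higher than both for 6 (15%), where 20.2% of all genes were, and lower than both for 4 (10%), where 17.9% were. The difference over the 42 genes had a median of -0.23 between intermediate and dorsal pieces, -0.28 between intermediate and ventral pieces, and 0 between dorsal and ventral pieces, beside medians of 0 to 2 decimals over all genes tested.

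**Figure D1:**
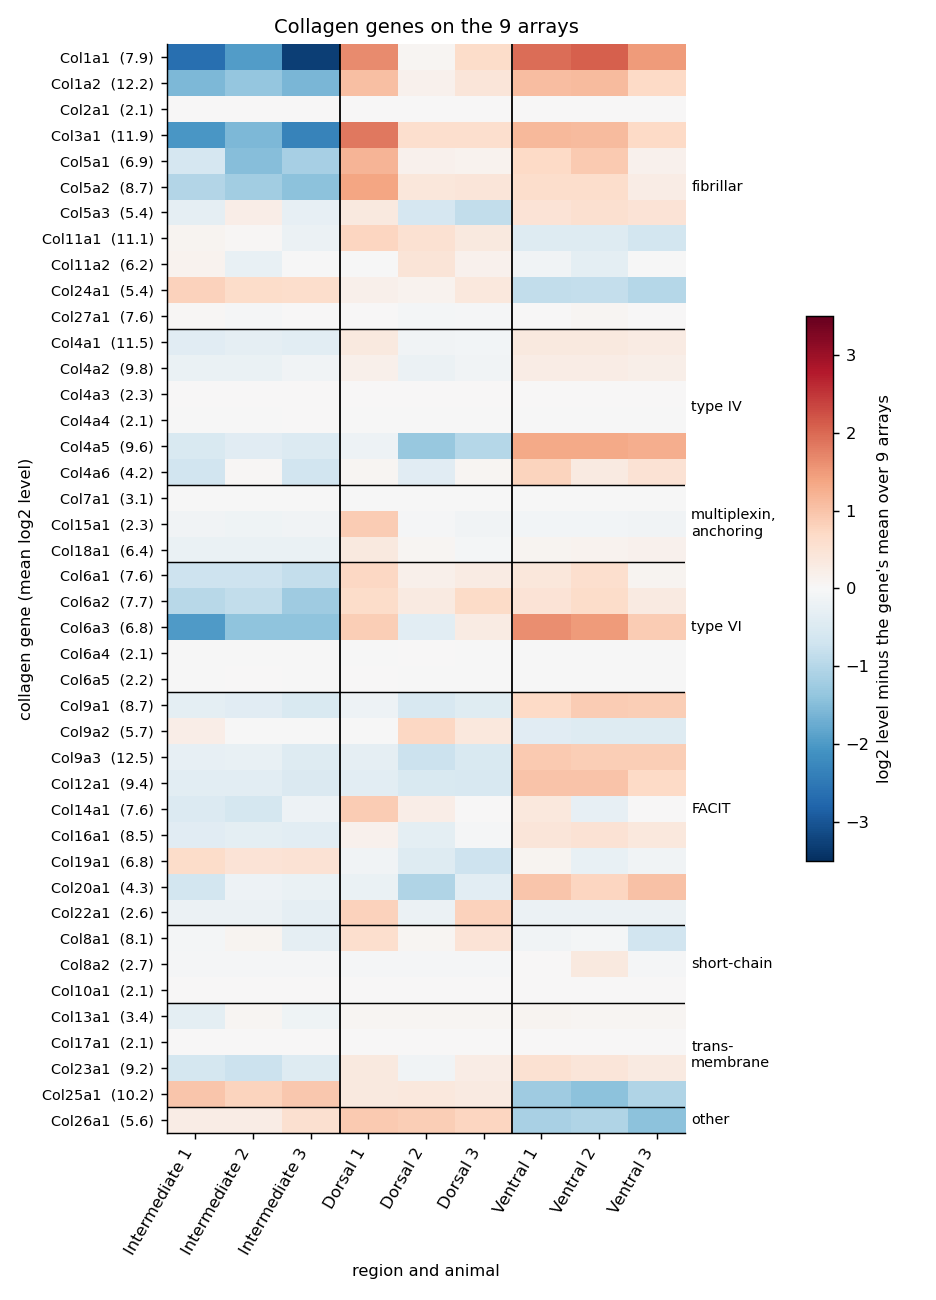
The 42 collagen genes (rows, by class) on the 9 arrays (columns: intermediate, dorsal, ventral), coloured by the deviation of each array from the gene's mean over the 9 arrays on the log2 scale. Col1a1, Col3a1 and Col6a3 are low on all 3 intermediate arrays, Col9a3 and Col12a1 high on all 3 ventral arrays, and Col25a1 low there.

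Among the fibrillar collagens, the main fibril formers were many-fold lower in intermediate pieces. Col1a1, on chromosome 11, encodes the alpha-1 chain of type I collagen, the commonest fibril of connective tissue. It read 5.29, 5.97 and 4.64 in the intermediate pieces of animals 1, 2 and 3, against 9.57, 8.01 and 8.56 in dorsal and 9.87, 10.01 and 9.43 in ventral pieces. No intermediate value came within 2 units of any other. The difference was -3.41 ± 0.47 (SE; 10.7-fold, adjusted p = 0.00708) against dorsal and -4.47 ± 0.47 (22.2-fold, adjusted p = 0.00153) against ventral pieces. The second Col1a1 probe set gave -3.27 and -4.42.

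Col1a2, on chromosome 6, encodes the partner chain alpha-2 of type I collagen. It read 10.61, 10.83 and 10.60 in intermediate pieces, against 13.23, 12.34 and 12.61 in dorsal and 13.26, 13.30 and 12.90 in ventral pieces. The difference was -2.05 ± 0.23 (4.13-fold, adjusted p = 0.00412) against dorsal and -2.47 ± 0.23 (5.55-fold, adjusted p = 0.00111) against ventral pieces. Both chains of type I collagen were thus lowest in the same pieces of all 3 animals. Col3a1, on chromosome 1, makes type III collagen, found with type I in pliable tissue and vessel walls. It read 9.81, 10.27 and 9.51 in intermediate pieces, against 13.70, 12.43 and 12.44 in dorsal and 12.98, 12.97 and 12.55 in ventral pieces. It differed by -2.99 ± 0.34 (7.96-fold, adjusted p = 0.00408) from dorsal and by -2.97 ± 0.34 (7.83-fold, adjusted p = 0.00198) from ventral pieces, and dorsal and ventral pieces overlapped.

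Type V collagen starts the assembly of type I fibrils, and its chains Col5a1 and Col5a2 followed the same order. Col5a1, on chromosome 2, read 6.31, 5.43 and 5.75 in intermediate pieces, against 8.10, 7.06 and 7.04 in dorsal and 7.61, 7.84 and 7.06 in ventral pieces. It differed by -1.57 ± 0.29 (adjusted p = 0.0163) from dorsal and by -1.67 ± 0.29 (adjusted p = 0.0076) from ventral pieces. Col5a2 read 7.64, 7.44 and 7.22 in intermediate pieces, against 10.04, 9.07 and 9.10 in dorsal and 9.29, 9.28 and 8.92 in ventral pieces, with no overlap between intermediate pieces and either other region. It differed by -1.97 ± 0.19 (3.91-fold, adjusted p = 0.00269) from dorsal and by -1.73 ± 0.19 (3.32-fold, adjusted p = 0.00181) from ventral pieces. The third type V chain, Col5a3, was called in no comparison.

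Other fibrillar members went other ways. Col11a1, a chain of the thin fibrils of type XI collagen, was highest dorsally, with 11.17, 11.12 and 10.88 in intermediate pieces, 11.82, 11.60 and 11.42 in dorsal and 10.63, 10.64 and 10.44 in ventral pieces. Its difference was -0.56 ± 0.05 (adjusted p = 0.00214) between intermediate and dorsal pieces and 1.05 ± 0.05 (adjusted p = 0.000124) between dorsal and ventral pieces, though a dimmer Col11a1 probe set gave -0.03 and 0.49. Col24a1, a fibrillar chain with a shortened helix, was highest in intermediate and lowest in ventral pieces, with 6.20, 6.03 and 6.01 in intermediate pieces, 5.57, 5.53 and 5.77 in dorsal and 4.54, 4.58 and 4.40 in ventral pieces. It was 1.58 ± 0.10 (2.98-fold, adjusted p = 0.000394) higher in intermediate than in ventral pieces and 0.46 ± 0.10 (adjusted p = 0.0253) higher than in dorsal pieces. The call between intermediate and dorsal pieces was lost in 9 alternatives for Col24a1, and without animal 3 for Col11a1 (adjusted p = 0.0579). Col2a1, Col11a2 and Col27a1 were called in no comparison. Of the 11 fibrillar members, intermediate pieces were called lower than dorsal pieces for 6 (14.2% of all genes) and higher for 1 (15.9%), and lower than ventral pieces for 5 (24.9%) and higher for 2 (23.4%).

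The type VI chains Col6a1, Col6a2 and Col6a3 assemble with one another into filaments around cells, and all 3 were lowest in intermediate pieces. Col6a1 and Col6a2 are neighbours on chromosome 10. Col6a2 read 6.75, 6.88 and 6.48 in intermediate pieces, against 8.37, 8.05 and 8.39 in dorsal and 8.22, 8.36 and 8.05 in ventral pieces. The intermediate values lay over 1 unit below all the others, a difference of -1.57 ± 0.15 (2.96-fold, adjusted p = 0.00275) from dorsal and of -1.51 ± 0.15 (2.84-fold, adjusted p = 0.00141) from ventral pieces. Col6a1 read 6.87, 6.87 and 6.77 in intermediate pieces, against 8.31, 7.78 and 7.89 in dorsal and 7.69 to 8.18 in ventral pieces, again without overlap of the intermediate values. Col6a1 differed by -1.16 ± 0.16 (adjusted p = 0.00659) and -1.12 ± 0.16 (adjusted p = 0.00377). Col6a3, on chromosome 1, read 4.84, 5.41 and 5.41 in intermediate pieces, against 7.69, 6.44 and 7.10 in dorsal and 8.45, 8.31 and 7.72 in ventral pieces, with no overlap of the intermediate values either. It differed by -1.86 ± 0.40 (3.62-fold, adjusted p = 0.0276) from dorsal and by -2.94 ± 0.40 (7.66-fold, adjusted p = 0.0037) from ventral pieces. Col6a4 and Col6a5 lay near the floor, with no call.

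**Figure D2:**
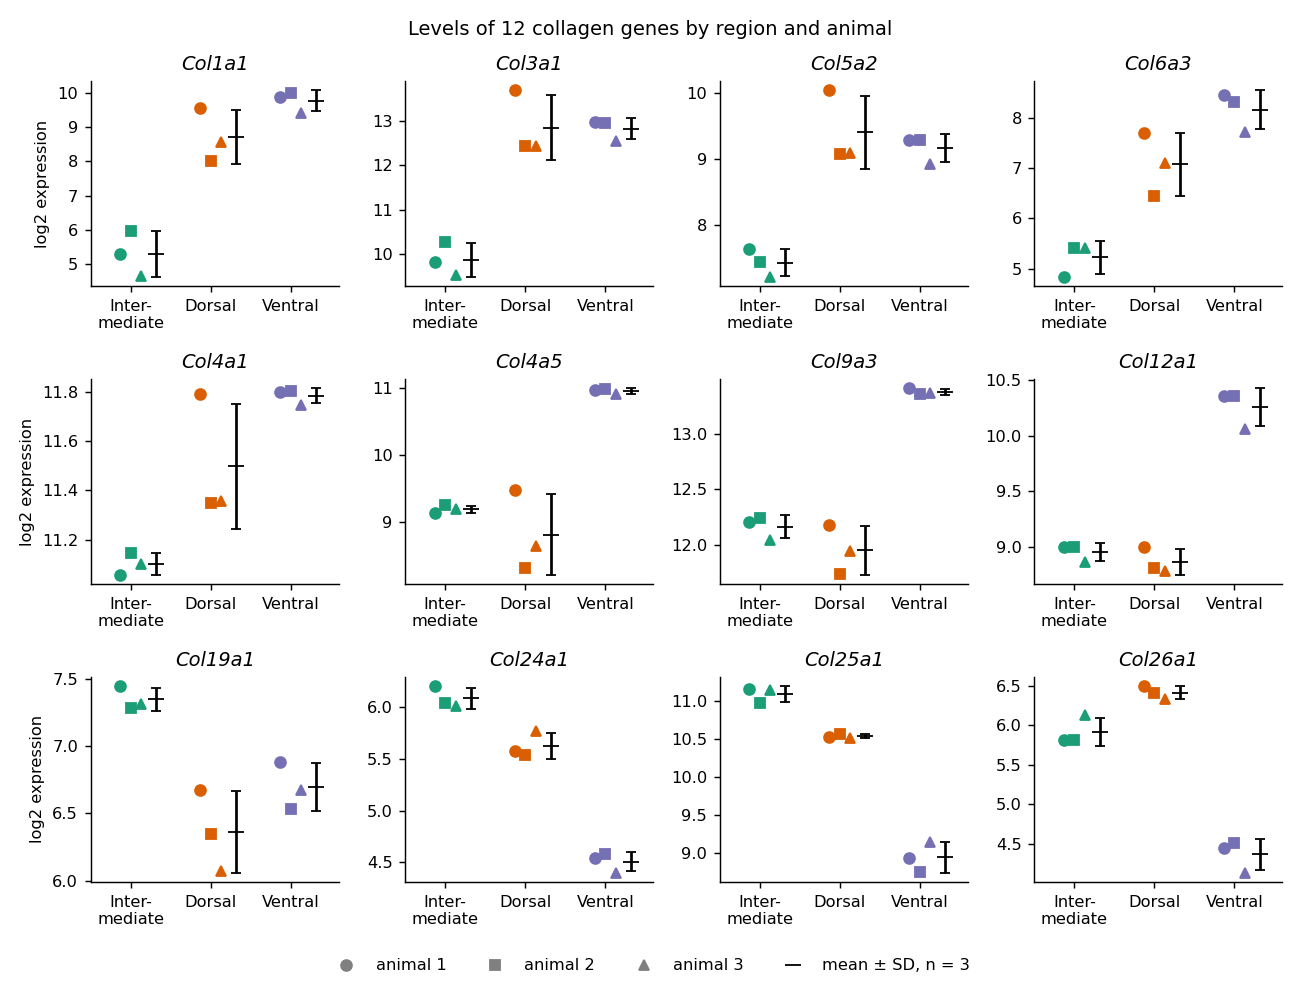
Levels of 12 collagens (log2, deposited scale; each panel has its own axis) in intermediate, dorsal and ventral pieces, 1 point per array, with the symbol marking the animal and bars for the mean ± SD of 3 animals. Col1a1 lies at 4.64 to 5.97 in intermediate pieces and at 8.01 to 10.01 elsewhere, while Col25a1 lies at 8.74 to 9.15 in ventral pieces and at 10.51 to 11.15 elsewhere.

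Some markers of other cells had the same order. Of 14 meningeal and fibroblast markers, 6 were called lower in intermediate pieces than in both other regions, where 4.2% of all genes were, among them Dcn, a fibril-bound proteoglycan, at 5.49, 5.99 and 5.06 in intermediate pieces, against 10.30, 8.79 and 9.41 in dorsal and 10.06, 10.14 and 9.55 in ventral pieces. Another 2 of the 14 were called higher in intermediate than in dorsal pieces, where 15.9% of all genes were. Foxd1, Crabp2, Slc6a13, Twist1 and Ptgds were called in no comparison. Of 6 Schwann cell markers, 3 (Pmp22, Pmp2 and Egr2) were called lower than both, and the log2 of the list's summed level was 9.14 to 9.85 in intermediate pieces, 12.24 to 14.19 in dorsal and 12.75 to 13.29 in ventral pieces. For the 9 collagens it was 11.63 to 11.95 in intermediate pieces, 13.64 to 14.70 in dorsal and 14.00 to 14.41 in ventral pieces. For the meningeal list it was 12.96 to 13.31 in intermediate pieces, 12.95 to 13.70 in dorsal and 13.60 to 13.86 in ventral pieces, so that intermediate and dorsal pieces overlapped. That sum includes Pdgfra and Igfbp2, which glia also express, and their part in it was not tested. No marker of these 2 lists was at the floor on all arrays. Of 9 microglia and macrophage markers, 8 were also called lower than both: C1qa, C1qb, Cx3cr1, P2ry12, Csf1r, Tyrobp, Aif1 and Mrc1. Mrc1, a mannose receptor of macrophages, read 3.65, 3.99 and 3.72 in intermediate pieces, against 7.38, 5.82 and 7.06 in dorsal and 7.69, 7.49 and 7.02 in ventral pieces. The log2 of that list's summed level was 11.41 to 11.66 in intermediate pieces, 11.98 to 12.26 in dorsal and 12.25 to 12.42 in ventral pieces. The part of these 3 lists in the result was not tested. Of the markers of other tissue, Comp, Matn3, Epyc and Ibsp of 10 cartilage and bone markers, 6 of 9 skeletal muscle markers, and Avil, Scn10a and Trpv1 of 7 sensory ganglion markers were at the floor on all 9 arrays. Others were measured. Cnmd and Alpl of the cartilage list were called highest in ventral pieces, and Hapln1 was 2.39 ± 0.11 (adjusted p = 0.000458) higher in intermediate than in dorsal pieces. Scn9a and Fxyd2 of the ganglion list were called lowest in ventral pieces, and no skeletal muscle marker was called.

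The array of dorsal piece 1 stood above the other dorsal arrays for these genes. It was the highest dorsal array for 8 of the 9 collagens, with a median deviation of 0.61 from the dorsal mean, against -0.34 for animal 2 and -0.12 for animal 3. Without that array 7 of the 9 were still called lower than both, Col5a1 and Col6a3 were not, and Col4a1 and Col18a1 joined them. Of the 9, none held both calls without animal 3, 3 did without animal 1, where Col4a1 joined them, and 7 without animal 2, where Col4a6 did. In these 3 reanalyses the same pattern covered 1.25%, 1.51% and 2.13% of all genes. Without animal 3, all 9 members were still below dorsal pieces, by -3.16 to -0.79, with adjusted p of 0.0501 to 0.168, and below ventral pieces, by -4.31 to -1.16, where 5 were called. Every call of an intermediate collagen against dorsal pieces was lost in at least 1 such reanalysis, in 12 alternatives for Col6a3 and 6 for Col5a1. The calls of Col1a1, Col1a2, Col6a2, Col6a3 and Col23a1 against ventral pieces were lost in no alternative that tested them. An alternative kept only genes with 9 distinct values, and it left out Col5a1, Col6a2 and Col6a3, which repeat values across arrays.

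None of the 6 type IV collagens, the chains of basement membranes, was called lower in intermediate pieces than in both other regions (4.2% of all genes). Intermediate pieces were called lower than ventral pieces for 4 of the 6, where 24.9% of all genes were, and were called against dorsal pieces for none, where 14.2% were lower and 15.9% higher. Dorsal pieces were called lower than ventral pieces for 1, Col4a5, where 28.2% were. At an unadjusted p under 0.05, limma held 1 of the 6, Col4a1, between intermediate and dorsal pieces. Col4a1 and Col4a2 form the type IV molecule that nearly all basement membranes share. Col4a1 read 11.06, 11.15 and 11.10 in intermediate pieces, against 11.79, 11.35 and 11.36 in dorsal and 11.80, 11.80 and 11.75 in ventral pieces. Its intermediate values lay below all the others, and the difference was -0.68 ± 0.12 (1.61-fold, adjusted p = 0.00772) from ventral pieces and -0.40 ± 0.12 (adjusted p = 0.0653) from dorsal pieces. In 6 alternatives, among them the fit without the block for animal and those without animal 1 or the dorsal array of animal 1, Col4a1 was called lower than dorsal pieces too. Col4a2, from the same promoter, averaged 9.59 ± 0.06 in intermediate pieces, 9.74 ± 0.20 in dorsal and 10.03 ± 0.03 in ventral pieces (SD, n = 3 each), and the difference between intermediate and ventral pieces was -0.43 ± 0.09 (adjusted p = 0.0168). The calls of both against ventral pieces were lost without animal 2 or animal 3, with adjusted p of up to 0.0882 for Col4a1 and 0.115 for Col4a2.

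Col4a5, on the X chromosome, encodes a chain of more specialised basement membranes, such as that of the kidney glomerulus. It read 9.12, 9.24 and 9.18 in intermediate and 9.47, 8.31 and 8.63 in dorsal pieces, against 10.97, 10.98 and 10.91 in ventral pieces. Ventral pieces lay above all others, and the difference was -1.77 ± 0.27 (3.41-fold, adjusted p = 0.0053) between intermediate and ventral pieces and -2.14 ± 0.27 (4.42-fold, adjusted p = 0.00235) between dorsal and ventral pieces. Without animal 3 these had adjusted p of 0.0836 and 0.058, and a second Col4a5 probe set gave -1.12 and -1.10. Col4a6, its neighbour on the opposite strand, with the starts 1343 bases apart, averaged 3.75 ± 0.41 in intermediate pieces, 4.09 ± 0.27 in dorsal and 4.72 ± 0.24 in ventral pieces, with a call between intermediate and ventral pieces (-0.97 ± 0.28, adjusted p = 0.0443) that was lost in 12 of its alternatives. Col4a3 and Col4a4 were near the floor and called in no comparison. Col18a1, the collagen of basement membranes that endostatin is cut from, differed by -0.34 ± 0.10 (adjusted p = 0.0428) between intermediate and ventral pieces, a call lost in 10 alternatives. Of 14 endothelial and mural markers, 11 were called highest in ventral pieces, where 20.2% of all genes were. Of the type IV collagens, only Col4a5 was called so in the main fit. For dorsal minus ventral pieces, limma gave -0.28 ± 0.09 for Col4a2 (adjusted p = 0.058) and -0.29 ± 0.12 for Col4a1 (adjusted p = 0.104). This call was gained in 8 alternatives for Col4a2, 5 for Col4a1 and 3 for Col4a6. Between intermediate and dorsal pieces, 3 of the endothelial and mural markers were called higher (15.9% of all genes) and none lower (14.2%). The log2 of the markers' summed level was 13.10 to 13.22 in intermediate pieces, 12.72 to 12.98 in dorsal and 13.69 to 13.71 in ventral pieces. Of 3 tested smooth muscle markers, 2 (Acta2 and Tagln) were called highest in ventral pieces. The part of these 2 lists in the type IV result was not tested.

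**Figure D3:**
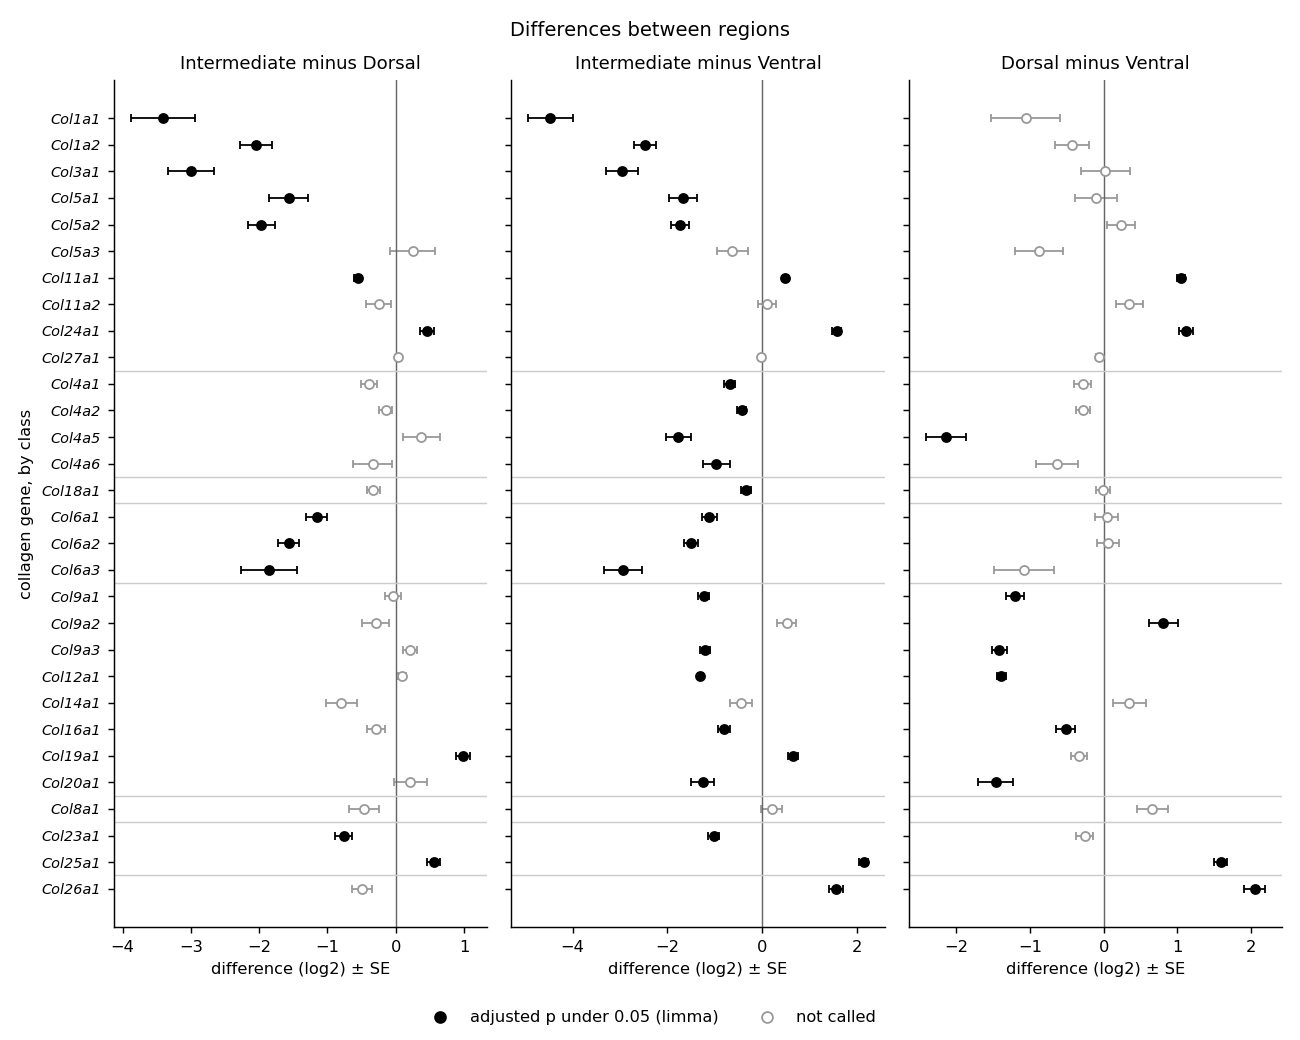
Differences (log2) ± SE between intermediate and dorsal, intermediate and ventral, and dorsal and ventral pieces for the 30 tested collagens with a mean level of at least 4, by class, with filled points for adjusted p under 0.05 and an axis range of its own in each panel. Col1a1 and Col3a1 lie near -3 or lower in both comparisons of intermediate pieces, and Col25a1 lies above 0 in all 3 comparisons.

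The FACIT collagens were mainly ventral. Of their 9 members, 5 were called higher in ventral pieces than in both other regions, where 20.2% of all genes were: Col9a1, Col9a3, Col12a1, Col16a1 and Col20a1. Col9a3, on chromosome 2, is a chain of type IX collagen, which coats cartilage fibrils. It read 12.21, 12.25 and 12.05 in intermediate and 12.18, 11.74 and 11.95 in dorsal pieces, against 13.40, 13.35 and 13.36 in ventral pieces. Ventral pieces were the highest in every animal, by -1.21 ± 0.10 (2.31-fold, adjusted p = 0.000891) for intermediate and -1.41 ± 0.10 (2.67-fold, adjusted p = 0.000407) for dorsal minus ventral pieces, and a second Col9a3 probe set gave -0.99 and -1.20.

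Col9a1, the partner chain alpha-1 of type IX, read 8.38, 8.33 and 8.18 in intermediate and 8.53, 8.17 and 8.29 in dorsal pieces, against 9.42, 9.62 and 9.57 in ventral pieces. It differed by -1.24 ± 0.12 (2.36-fold, adjusted p = 0.00111) between intermediate and ventral pieces and by -1.20 ± 0.12 (2.3-fold, adjusted p = 0.000913) between dorsal and ventral pieces. A far dimmer Col9a1 probe set gave -0.22 and -0.35. The third type IX chain, Col9a2, ran the other way. Col9a2 averaged 5.79 ± 0.14 in intermediate pieces, 6.09 ± 0.37 in dorsal and 5.27 ± 0.03 in ventral pieces, 0.81 ± 0.20 (adjusted p = 0.0225) higher in dorsal than in ventral pieces, a call lost in 7 alternatives.

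Col12a1, on chromosome 9, makes type XII collagen of dense connective tissue. It read 9.00, 9.00 and 8.86 in intermediate and 9.00, 8.81 and 8.78 in dorsal pieces, against 10.36, 10.35 and 10.06 in ventral pieces. The difference was -1.30 ± 0.06 (2.47-fold, adjusted p = 0.000221) between intermediate and ventral pieces and -1.39 ± 0.06 (2.62-fold, adjusted p = 9.52e-05) between dorsal and ventral pieces, and intermediate and dorsal pieces overlapped. The next Col12a1 probe set, far dimmer, gave -0.03 between intermediate and ventral pieces. Col16a1 and Col20a1 had the same order at smaller or dimmer values. Col16a1 averaged 8.18 ± 0.03 in intermediate pieces, 8.47 ± 0.25 in dorsal and 8.99 ± 0.07 in ventral pieces. It differed by -0.80 ± 0.13 (1.75-fold, adjusted p = 0.00588) between intermediate and ventral pieces. Between dorsal and ventral pieces Col16a1 differed by -0.52 ± 0.13 (adjusted p = 0.0234). That call was lost in 8 alternatives, among them those without animal 1 or animal 3. Col20a1 read 3.63, 4.09 and 4.02 in intermediate and 4.02, 3.20 and 3.88 in dorsal pieces, against 5.22, 5.01 and 5.28 in ventral pieces, and differed by -1.26 ± 0.24 (2.39-fold, adjusted p = 0.0112) between intermediate and ventral pieces. The other Col20a1 probe sets were at the floor on all 9 arrays. Without animal 3, Col16a1 and Col20a1 were called in neither comparison, with adjusted p of up to 0.144 for Col16a1 and 0.127 for Col20a1 over their alternatives.

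Most astrocyte and oligodendrocyte markers were highest in ventral pieces, like these genes. All 7 astrocyte markers and 6 of 7 oligodendrocyte lineage markers were called highest in ventral pieces, where 20.2% of all genes were. Between intermediate and dorsal pieces, 4 astrocyte markers were called higher and 1 lower. There, 2 oligodendrocyte markers were called higher and none lower (15.9% of all genes higher, 14.2% lower). None of the ventral FACIT genes was called in that comparison. The log2 of the summed oligodendrocyte level was 16.49 to 16.66 in intermediate pieces, 16.51 to 16.58 in dorsal and 16.98 to 17.04 in ventral pieces. Their part in the FACIT result was not tested. Col19a1, a FACIT collagen that mouse interneurons make, had another order. It read 7.45, 7.28 and 7.32 in intermediate pieces, against 6.67, 6.34 and 6.07 in dorsal and 6.88, 6.53 and 6.67 in ventral pieces. Intermediate pieces were above all others, by 0.99 ± 0.11 (1.98-fold, adjusted p = 0.00367) against dorsal and 0.65 ± 0.11 (1.57-fold, adjusted p = 0.00661) against ventral pieces. Without animal 2 both calls were lost, and without animal 1 the second was, with adjusted p of up to 0.056 and 0.0845. Col9a1 and Col19a1 lie next to each other on chromosome 1 and had different orders. Col14a1 and Col22a1 were called in no comparison.

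The transmembrane collagens split. Col25a1, on chromosome 3, is a neuronal collagen first found in amyloid plaques, and its ectodomain is shed. It read 11.15, 10.96 and 11.14 in intermediate pieces, against 10.52, 10.56 and 10.51 in dorsal and 8.94, 8.74 and 9.15 in ventral pieces. The 3 regions did not overlap. It was 2.14 ± 0.09 (4.42-fold, adjusted p = 0.000202) higher in intermediate than in ventral pieces, 1.59 ± 0.09 (3.01-fold, adjusted p = 0.000197) higher in dorsal than in ventral pieces, and intermediate exceeded dorsal pieces by 0.55 ± 0.09 (1.47-fold, adjusted p = 0.0117). The last call was lost without animal 1, without animal 3 and without the intermediate array of animal 1, with adjusted p of up to 0.139, and those against ventral pieces were lost in no alternative. These values rest on 1 probe set, since the other Col25a1 probe set was at the floor on all 9 arrays.

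Col23a1, on chromosome 11, another shed transmembrane collagen, had the opposite order and was the 1 member of the low intermediate pattern outside the fibrillar and type VI classes. It read 8.58, 8.44 and 8.74 in intermediate pieces, against 9.53, 9.07 and 9.45 in dorsal and 9.72, 9.61 and 9.49 in ventral pieces. It differed by -0.76 ± 0.12 (1.7-fold, adjusted p = 0.0104) from dorsal and by -1.02 ± 0.12 (2.03-fold, adjusted p = 0.0022) from ventral pieces, and its other probe sets gave -0.96 and -0.36 against dorsal pieces. Col26a1, a secreted collagen on chromosome 5 outside these classes, was lowest ventrally, with 5.82, 5.81 and 6.13 in intermediate and 6.49, 6.41 and 6.33 in dorsal pieces, against 4.44, 4.51 and 4.13 in ventral pieces. It was 1.56 ± 0.15 (2.94-fold, adjusted p = 0.00115) higher in intermediate and 2.05 ± 0.15 (4.14-fold, adjusted p = 0.000374) higher in dorsal than in ventral pieces. The other Col26a1 probe set was at the floor on all 9 arrays. Of 6 neuron markers, 5 were likewise called lowest in ventral pieces, where 17.9% of all genes were, and 3 (Snap25, Tubb3 and Elavl4) were called higher in intermediate pieces than in both other regions, where 6.25% were. Another 2 of the 6 were called lower in intermediate than in dorsal pieces, where 14.2% of all genes were. The log2 of their summed level was 15.77 to 15.88 in intermediate pieces, 15.68 to 15.83 in dorsal and 14.90 to 14.93 in ventral pieces. Their part in the orders of Col24a1, Col19a1, Col25a1 and Col26a1 was not tested. The short-chain collagens Col8a1 and Col8a2 and the transmembrane Col13a1 were called in no comparison, and neither were Col7a1, the anchoring fibril collagen, nor Col15a1.

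**Figure D4:**
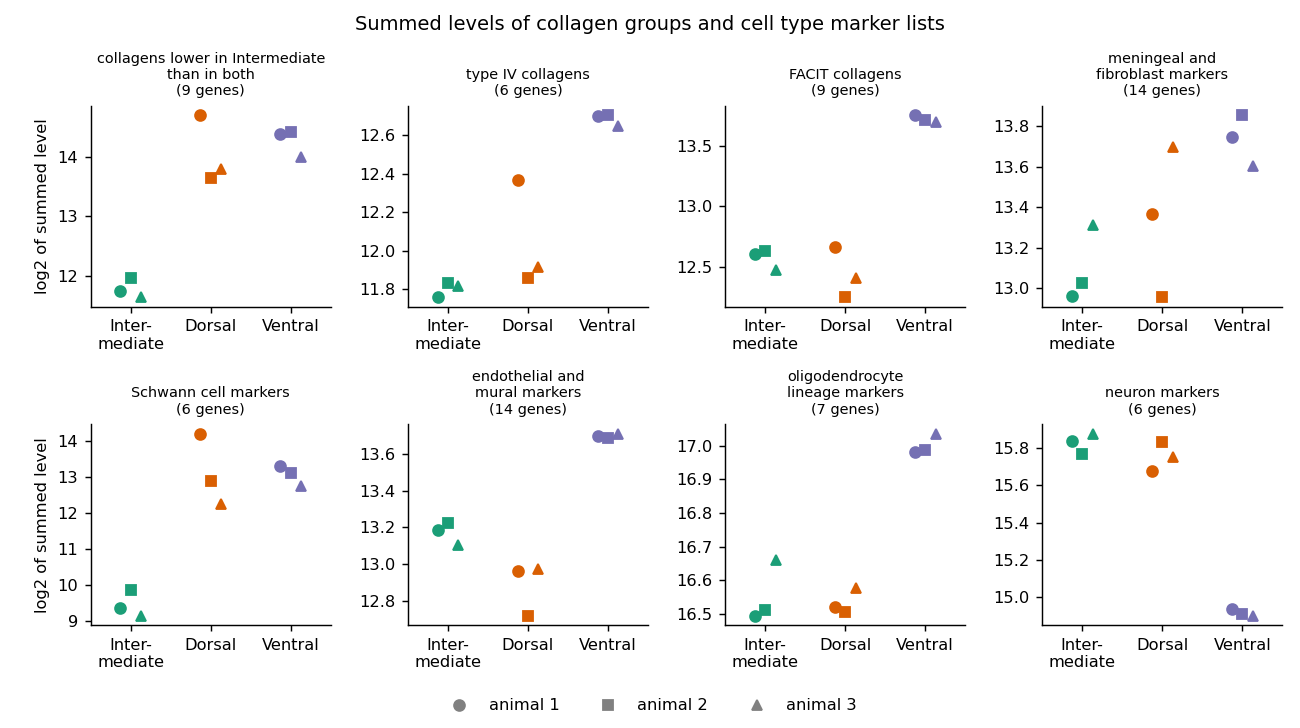
Summed level (log2 of the sum of linear values, 1 point per array) of groups of collagens and of cell type marker lists in intermediate, dorsal and ventral pieces. The 9 collagens called lower than both lie at 11.63 to 11.95 in intermediate pieces and above 13 elsewhere, and the Schwann cell markers at 9.14 to 9.85 and above 12.

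The genes that process collagen were read as lists, and each count below stands against the shares over all genes. These were 14.2% lower and 15.9% higher for intermediate against dorsal pieces, 24.9% and 23.4% for intermediate against ventral pieces, and 28.2% and 24.5% for dorsal against ventral pieces. Of 19 genes of chain hydroxylation, folding and secretion, intermediate pieces were called lower than dorsal pieces for 2 and higher for none, and lower than ventral pieces for 12 and higher for 4. Dorsal pieces were called lower than ventral pieces for 9 of them and higher for 2. Serpinh1, the collagen chaperone Hsp47, read 10.35, 10.32 and 10.33 in intermediate and 11.10, 10.25 and 10.46 in dorsal pieces, against 11.38, 11.28 and 11.34 in ventral pieces. Ventral pieces were the highest in all 3 animals, and the difference was -0.73 ± 0.18 (adjusted p = 0.0227) between dorsal and ventral pieces, with adjusted p = 0.00875 between intermediate and ventral pieces. Plod1, a lysyl hydroxylase, had the same order, by -1.44 ± 0.16 (adjusted p = 0.00168) between intermediate and ventral and -1.75 ± 0.16 (adjusted p = 0.000697) between dorsal and ventral pieces. Both collagen galactosyltransferases were called lower in intermediate than in dorsal pieces, Colgalt2 by -1.25 ± 0.15 (adjusted p = 0.00451) and Colgalt1 by -0.57 ± 0.03 (adjusted p = 0.000684). Against ventral pieces, intermediate pieces differed by -1.50 ± 0.15 (adjusted p = 0.00126) for Colgalt2 and by 0.44 ± 0.03 (adjusted p = 0.000551) for Colgalt1.

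Of 8 tested genes of procollagen cleavage and crosslinking, intermediate pieces were called higher than dorsal pieces for 1 and lower for 1, and higher than ventral pieces for 1 and lower for 5, while dorsal pieces were called lower than ventral pieces for 4. Pcolce, which enhances the trimming of fibrillar procollagen, read 6.82, 7.36 and 6.60 in intermediate pieces, against 9.86, 8.44 and 9.34 in dorsal and 10.11, 10.10 and 9.57 in ventral pieces. Its intermediate values did not overlap with either region, and they differed by -2.29 ± 0.42 (adjusted p = 0.0166) and -3.00 ± 0.42 (adjusted p = 0.00385). Adamts3, a procollagen N-proteinase, was the gene called higher, by 1.13 ± 0.19 (adjusted p = 0.0136) against dorsal and 0.85 ± 0.19 (adjusted p = 0.0196) against ventral pieces. Lox, which crosslinks fibrils, was at the floor in all intermediate and dorsal pieces and read 3.82, 4.43 and 2.94 in ventral pieces.

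Of 9 tested collagen receptors, intermediate pieces were called lower than dorsal pieces for 2 and lower than ventral pieces for 6, and higher than either for none, and dorsal pieces lower than ventral pieces for 5 and higher for 1. Adgrg6, an adhesion receptor that binds type IV collagen, was lowest in intermediate pieces, by -1.39 ± 0.23 (adjusted p = 0.0119) against dorsal and -1.37 ± 0.23 (adjusted p = 0.0069) against ventral pieces. Ddr2, a receptor kinase for fibrillar collagen, was highest in dorsal pieces, by -1.71 ± 0.23 (adjusted p = 0.00669) for intermediate minus dorsal pieces and 0.91 ± 0.23 (adjusted p = 0.0249) for dorsal minus ventral pieces. Itga1, a collagen-binding integrin chain, was highest in ventral pieces, by -1.20 ± 0.13 (adjusted p = 0.00158) for intermediate and -1.65 ± 0.13 (adjusted p = 0.000459) for dorsal minus ventral pieces. Of 7 tested genes of collagen degradation, intermediate pieces were called lower than dorsal pieces for 3 and higher for none, and lower than ventral pieces for 4 and higher for 1. Dorsal pieces were called lower than ventral pieces for 4 of the 7 and higher for 1. Mmp2, a gelatinase, was among the lower ones, at 4.31, 4.61 and 4.61 in intermediate pieces, against 5.53, 5.43 and 5.43 in dorsal and 6.54, 6.68 and 6.08 in ventral pieces, a difference of -0.95 ± 0.17 (adjusted p = 0.0151) and -1.92 ± 0.17 (adjusted p = 0.000926). Timp2, an inhibitor of such proteases, was 0.86 ± 0.05 (adjusted p = 0.000289) higher in intermediate than in ventral pieces and was highest in dorsal pieces, by -0.26 ± 0.05 (adjusted p = 0.0137) for intermediate minus dorsal and 1.13 ± 0.05 (adjusted p = 8.6e-05) for dorsal minus ventral pieces.

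Partners of the fibrils and of basement membranes are given beside their collagens. Of 11 fibril partners, intermediate pieces were called lower than dorsal pieces for 2 (Tnc and Postn) and lower than ventral pieces for 9, and higher than either for none, and dorsal pieces lower than ventral pieces for 7. Postn, which binds type I collagen, read 6.57, 5.75 and 6.28 in intermediate pieces, against 9.85, 8.06 and 8.09 in dorsal and 8.96, 8.79 and 8.54 in ventral pieces. It differed by -2.46 ± 0.37 (adjusted p = 0.00932) and -2.56 ± 0.37 (adjusted p = 0.00437). Of 13 basement membrane partners, intermediate pieces were called lower than dorsal pieces for 2 and higher for none, and lower than ventral pieces for 7 and higher for 1. Dorsal pieces were called lower than ventral pieces for 3 of these partners and higher for 1. Lama2, the laminin chain of Schwann cell and vessel basement membranes, read 5.34, 5.42 and 5.43 in intermediate pieces, against 9.22, 7.62 and 7.25 in dorsal and 7.32, 7.35 and 7.17 in ventral pieces. Its difference of -2.64 ± 0.46 (adjusted p = 0.014) from dorsal and of -1.89 ± 0.46 (adjusted p = 0.024) from ventral pieces left no overlap.

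As a check of the labelled regions, all 8 dorsal horn markers were called higher in dorsal than in both intermediate and ventral pieces. Of all genes, 14.2% were called higher in dorsal than in intermediate pieces and 24.5% higher in dorsal than in ventral pieces. The share with both calls was not counted. Of 6 motor neuron markers, the cholinergic genes Chat, Slc18a3 and Slc5a7 were at the floor on all 9 arrays, ventral ones included, while the log2 of the summed level of the list was 6.96 to 7.64 in intermediate pieces, 4.73 to 4.85 in dorsal and 9.39 to 9.83 in ventral pieces. Only 1 of the 3 tested motor neuron markers, Prph, was called highest in ventral pieces, where 20.2% of all genes were. Correlations over all probe sets were 0.998 to 0.9993 between arrays of 1 region and 0.9821 to 0.9952 between regions, and no 2 arrays were identical. Each group had 3 arrays, and that number limits the precision of every value here. The p-values rest on how far a gene's region differences varied among these 3 animals, after the level of each animal was taken out. That spread was pooled over all 3 regions. The eBayes step of limma then drew it towards the spread of all genes, with 0.749 prior beside 4 residual degrees of freedom.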

How the data were processed

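Total RNA of the 9 pieces was converted to biotin-labelled cRNA and hybridised to Affymetrix arrays, per the labels' protocols. The authors deposited 1 table of 45037 probe sets, whose values (2.15 to 16.27) were read as log2; their summarisation, background correction and normalization are not given in the sources used here, and a common floor can shrink differences of dim genes. The platform annotation gave 1 symbol for 34945 probe sets, several for 932 and none for 9160. Genes with a mean below the 30th percentile of probe set means (4234) were left out. Differences were fitted with limma 3.58.1 in R 4.3.3, with region and animal as terms, eBayes and Benjamini-Hochberg adjustment over 13959 genes, after a test on simulated data. Animal numbers pair the samples, since the labels name the animal; same-animal deviations had r of -0.07 to 0.25 over 9 pairs. Alternatives covered the block, scaling, the filter, the choice of probe set, ties, the arrays fitted and each array or animal left out. The collagens, the pathway and marker lists, and the rule for the values given on every array (called with a difference of at least 1, or bright in their class; at most 4 pathway genes per list, comparison and direction) were chosen with earlier results of these data known. Promoter sequences are RefSeq's.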

Additional observations from a re-analysis of the deposited data

How the results depend on the processing

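Over 23 alternatives, 2622 member differences were recomputed: 2427 stayed on their side of the threshold, 106 of the values lost a call, 89 gained one and none reversed, and 60 uncalled differences changed sign. Without the block for animal (the pairing left out), 113 of 120 differences kept their side, 7 gained a call and none lost one. Centring each array on its median gave 6 higher and 11 lower in dorsal than in ventral pieces, and quantile normalization 5 and 9, beside 5 and 6. Fewer genes tested moved counts too: the 50th percentile filter gave 10 lower in dorsal than in ventral pieces, and a mean of at least 6 gave 3 higher and 10 lower there, 3 higher in intermediate than in ventral pieces and 2 lowest in ventral pieces. Fitting only the arrays of the 2 regions gave 6 lower in intermediate than in dorsal pieces. Leaving out an array or an animal gave 1 to 4 higher and 1 to 13 lower for intermediate minus dorsal pieces, 4 to 6 higher and 8 to 19 lower for intermediate minus ventral pieces, 4 to 7 higher and 3 to 9 lower for dorsal minus ventral pieces, 0 to 10 lowest and 0 to 3 highest in intermediate pieces, and 3 to 9 highest and 4 to 5 lowest in ventral pieces. Without animal 3, those called lower for intermediate minus ventral pieces were 8, those highest in ventral pieces 3 and those lowest in intermediate pieces 0; without animal 1, none was highest in intermediate pieces. Leaving out an animal leaves 2 residual degrees of freedom in place of 4. Differences near the floor, such as those of Col4a6 and Col20a1, may be compressed.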

Other observations

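For the tested collagens, the values that the main fit did not use were those of probe sets other than the kept one. Some alternatives drew on them. The dimmest Col1a2 probe set, with a mean of 2.35, gave -0.44 for intermediate minus dorsal and -0.11 for intermediate minus ventral pieces, beside -2.31 and -2.97 on the second. Of the 9 collagens lowest in intermediate pieces, Col3a1 and Col5a2 lie next to each other on chromosome 1, and their second probe sets gave -3.90 and -2.39 against dorsal pieces.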
